A study of Mus musculus with 8 samples.

Results

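The genes described here are the mouse Zfp genes, which encode zinc finger proteins, on chromosomes 5, 8, 9, 10, 11, 14, 15, 17 and 19. They were taken as every gene of the GENCODE M21 annotation (GRCm38) with a symbol made of Zfp and a digit on these 9 chromosomes, which gave 161 of 417 such genes. Chromosome 17 held 47 of them, chromosome 8 held 27, chromosome 11 held 23, chromosome 9 held 19, chromosome 5 held 18, chromosome 15 held 13, and chromosomes 10, 14 and 19 held 6, 5 and 3. These chromosomes hold most regions of each of the 3 deposited region lists. The counts were 36774 of 42704 for H3K9me1, 27621 of 29119 for H3K9me2 and 23355 of 27108 for H3K9me3. The chromosomes were thus chosen from the coverage of the lists, and the genes were chosen by name alone. On these chromosomes the lists covered between 6.24% (H3K9me2, chromosome 11) and 59.0% (H3K9me2, chromosome 10) of the sequence.

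Chromatin immunoprecipitation followed by sequencing (ChIP-seq) gave reference maps of histone H3 lysine 9 in mouse embryonic fibroblasts (MEFs) for each of its methylated states, the mono- (H3K9me1), di- (H3K9me2) and trimethylated (H3K9me3) form. The 8 samples were 2 replicates each of sonicated input DNA and of ChIP with antibodies against H3K9me1 (abcam ab8896), H3K9me2 (ab1220) and H3K9me3 (ab8898). All were labelled wild type and no agent is named. Per the study's methods these cells are one clone of Eset1-conditional MEFs that also carries an inducible Cre, and the study uses it as wild type while Eset1 is not deleted, so every sample shares the clone and the conditional allele. Each mark came as 1 list of enriched regions with no value per replicate and no read depth, so a gene is either met by a region or not, no SD can be given, and no test between marks or gene sets was made. Ranges in brackets are 95% Wilson intervals, which cover counting error only. Neighbouring genes can share a region and are not independent.

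Zinc finger proteins of the C2H2 type bind DNA through arrays of short modules in which a pair of cysteines and a pair of histidines hold a zinc ion. Many mouse Zfp genes also encode a KRAB box near the start of the protein. The KRAB box recruits the corepressor TRIM28 (KAP1), which brings in the H3K9 methyltransferase SETDB1 (ESET), and KRAB zinc finger proteins are known for silencing retrotransposons and for keeping imprints. Many genes of the family lie in tandem clusters, and KRAB genes commonly carry their whole finger array in a long last coding exon near the 3' end. Their 3' exons are themselves known targets of TRIM28 and H3K9me3.

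Of the 161 genes, 153 were protein-coding, 5 were pseudogenes, 2 were antisense transcripts and 1 was a lincRNA in this annotation. A C2H2 finger was found in the translated coding sequence of 145 genes, with a median of 11 fingers (range 1 to 27). The name and the structure therefore matched for most genes, and the 8 coding genes with no finger found were Zfp703, Zfp330, Zfp365, Zfp781, Zfp750, Zfp503, Zfp957 and Zfp36l2. A KRAB box was found in 87 genes, and 59 genes had fingers and no KRAB box found. Of 1492 fingers, 1407 (94.3%) lay inside the longest coding exon of their gene.

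Finger arrays are among the parts scored below, so 1 finger from near the middle of 6 arrays is shown. Each is given as 84 bases 5' to 3' from the GRCm38.p6 genome, with the codons of the zinc-binding cysteines and histidines in capitals. Zfp872 and Zfp709 are covered by H3K9me3 over their whole body, Zfp960 and Zfp97 carry H3K9me3 at the 3' end and not at the start, and the fingers of Zfp57 and Zfp62 lie in no region of any mark.

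Zfp872 (finger 7, chr9:22200064-22200147, plus strand): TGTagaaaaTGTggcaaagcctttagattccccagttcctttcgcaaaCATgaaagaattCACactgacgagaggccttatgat

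Zfp709 (finger 10, chr8:71890163-71890246, plus strand): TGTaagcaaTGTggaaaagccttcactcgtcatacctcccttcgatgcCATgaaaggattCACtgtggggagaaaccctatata

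Zfp960 (finger 7, chr17:17088079-17088162, plus strand): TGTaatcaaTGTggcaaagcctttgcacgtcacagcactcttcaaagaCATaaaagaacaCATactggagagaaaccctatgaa

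Zfp97 (finger 7, chr17:17145294-17145377, plus strand): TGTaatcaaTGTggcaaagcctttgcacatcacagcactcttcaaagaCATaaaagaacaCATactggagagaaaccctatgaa

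Zfp57 (finger 2, chr17:37009763-37009846, plus strand): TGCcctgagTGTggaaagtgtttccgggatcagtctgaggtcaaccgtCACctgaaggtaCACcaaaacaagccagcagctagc

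Zfp62 (finger 13, chr11:49216467-49216550, plus strand): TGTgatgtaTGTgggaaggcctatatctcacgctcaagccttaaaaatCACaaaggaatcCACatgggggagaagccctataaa

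The fingers of Zfp960 and Zfp97 were identical at 83 of 84 bases (98.81%), so reads from the arrays of these neighbours can be hard to assign to 1 gene, and how reads with several placements were treated is not given in the sources used here. Against the finger of Zfp872, that of Zfp960 matched at 58 of 84 bases, that of Zfp709 at 54, that of Zfp62 at 49 and that of Zfp57 at 30. The 6 genes were picked after their coverage had been seen, so these identities describe the examples alone.

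Promoters are shown for 4 genes that differed in mark, as the 250 bases before the RefSeq start site (RefSeq, GRCm38.p6), with every CG dinucleotide in capitals. That of Zfp385a lay wholly inside an H3K9me1 region and in no other, that of Zfp709 wholly inside regions of all 3 marks, and those of Zfp872 and Zfp42 wholly inside H3K9me3 regions and in no other.

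Zfp385a (promoter, chr15:103340087-103340336, minus strand): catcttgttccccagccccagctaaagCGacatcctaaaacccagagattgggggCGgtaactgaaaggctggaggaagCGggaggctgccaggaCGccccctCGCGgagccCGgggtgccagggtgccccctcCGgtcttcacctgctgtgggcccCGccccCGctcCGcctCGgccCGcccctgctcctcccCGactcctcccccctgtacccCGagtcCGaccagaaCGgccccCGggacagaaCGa

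Zfp709 (promoter, chr8:71881818-71882067, plus strand): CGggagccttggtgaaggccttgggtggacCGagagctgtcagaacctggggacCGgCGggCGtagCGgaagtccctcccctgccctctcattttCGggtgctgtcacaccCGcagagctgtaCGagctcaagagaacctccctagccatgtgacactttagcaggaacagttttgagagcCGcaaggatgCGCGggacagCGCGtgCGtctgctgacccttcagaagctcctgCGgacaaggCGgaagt

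Zfp872 (promoter, chr9:22187916-22188165, plus strand): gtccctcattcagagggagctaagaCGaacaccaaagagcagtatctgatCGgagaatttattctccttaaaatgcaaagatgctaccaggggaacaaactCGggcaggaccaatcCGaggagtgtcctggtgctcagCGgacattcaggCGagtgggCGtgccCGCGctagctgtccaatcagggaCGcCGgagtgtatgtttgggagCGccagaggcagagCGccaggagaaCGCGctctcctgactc

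Zfp42 (promoter, chr8:43307010-43307259, minus strand): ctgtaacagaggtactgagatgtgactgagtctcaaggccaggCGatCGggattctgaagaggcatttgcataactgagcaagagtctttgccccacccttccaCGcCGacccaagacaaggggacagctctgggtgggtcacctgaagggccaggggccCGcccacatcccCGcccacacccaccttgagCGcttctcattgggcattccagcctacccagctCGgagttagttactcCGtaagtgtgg

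These promoters held 19, 17, 15 and 9 CG dinucleotides. RefSeq promoters were matched for 130 of the 161 genes, with a median of 10 CG dinucleotides (range 0 to 44). The median over all 32851 promoters of the table was 6, and 30267 of them (92.1%) held at least 1. The promoters shown inside H3K9me3 regions were therefore near or above the Zfp median in CG.

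H3K9me3 met the 3' ends of Zfp genes far more often than their starts. A start site or 3' end was counted as met when a region reached within 1 kb of any annotated one by at least 1 bp, and a body when a region overlapped it by at least 1 bp. H3K9me3 met the start sites of 28 genes (17.4%, 12.3 to 24.0), the bodies of 71 (44.1%, 36.7 to 51.8) and the 3' ends of 67 (41.6%, 34.3 to 49.3). Of the 9632 protein-coding genes on the same chromosomes, which include the coding Zfp genes, it met 20.1% at start sites, 30.5% at bodies and 22.7% at 3' ends, and of all 22392 annotated genes it met 25.3%, 31.3% and 26.7%. The Zfp share at start sites was thus near that of protein-coding genes, and the shares at bodies and 3' ends were above it. At start sites the Zfp share lay below when only the gene's own 5' end was counted (9.94% against 15.3%). It also lay below without chromosome 8 (12.7% against 19%) and with regions of at least 5 kb only (14.3% against 16.1%). It lay above without chromosome 17 (23.7% against 20.9%) and without chromosomes 10 and 15 (15.5% against 14.2%). On 7 of the 9 chromosomes taken singly it lay above as well. The body difference rests on partly covered genes, since H3K9me3 covered at least 50% of the body in 24 Zfp genes (14.9%) and in 14.3% of protein-coding genes.

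For H3K9me1 the Zfp genes lay below the protein-coding genes at every place. It met the start sites of 61 genes (37.9%, 30.8 to 45.6), the bodies of 99 (61.5%, 53.8 to 68.7) and the 3' ends of 86 (53.4%, 45.7 to 61.0). Protein-coding genes were met at 54.4%, 72.6% and 66.3%, and all annotated genes at 45.6%, 55.3% and 52.0%. Against all annotated genes, the Zfp genes were therefore lower at start sites only. With the gene's own 5' end as the only start site H3K9me1 met 16.8% of Zfp genes and 31.3% of protein-coding genes, and without chromosome 17 it met 45.6% and 54.6% at any start site. The median share of a Zfp gene body inside H3K9me1 regions was 22.0%, against 41.0% for protein-coding genes. The Zfp median was unsteady, at 9.82% without chromosomes 10 and 15, 10.5% without chromosome 8 and 33.1% without chromosome 17.

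H3K9me2 was the least common mark at Zfp genes. It met 20 genes at start sites (12.4%, 8.19 to 18.4), 32 at bodies (19.9%, 14.4 to 26.7) and 27 at 3' ends (16.8%, 11.8 to 23.3). Protein-coding genes were met at 22.6%, 33.8% and 25.5%, and all annotated genes at 26.4%, 33.1% and 28.3%. The median Zfp gene body held no H3K9me2 and no H3K9me3, and the same was true of protein-coding genes. The mean share of the body was 9.88% for H3K9me2 and 18.2% for H3K9me3, against 16.98% and 15.2% for protein-coding genes.

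**Figure D1:**
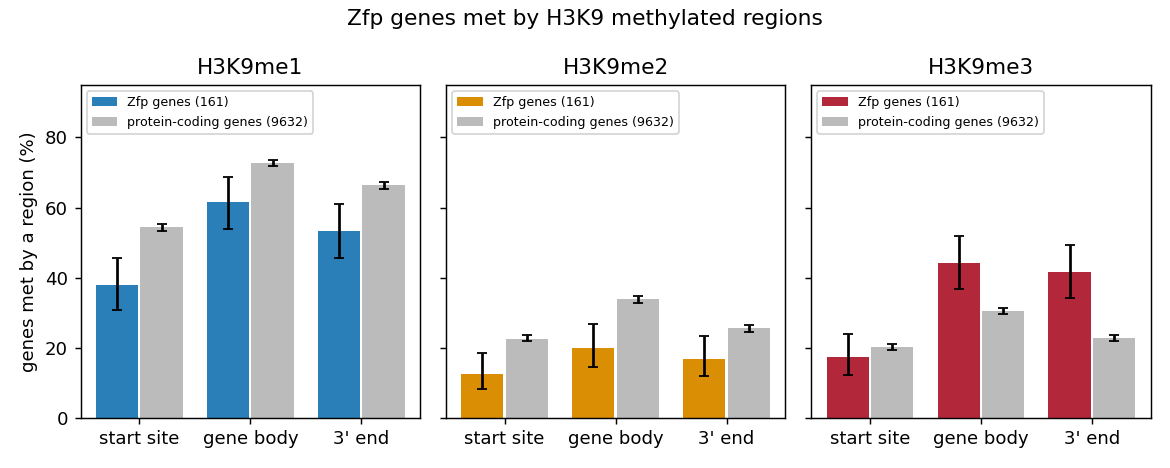
Share of genes (%) met by regions of each mark at start sites, gene bodies and 3' ends, for the 161 Zfp genes (coloured bars) and the 9632 protein-coding genes on the same chromosomes (grey bars), with 95% Wilson intervals as error bars. The coloured bars are below the grey bars for H3K9me1 and H3K9me2, and for H3K9me3 they are above them at bodies and 3' ends (44.1% and 41.6%) and close to them at start sites (17.4%).

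With the chromosome makeup held equal, the differences were about as large for H3K9me1 and H3K9me3 and somewhat smaller for H3K9me2. When the protein-coding share of each chromosome was weighted by its number of Zfp genes, H3K9me3 came to 18.1% at start sites, 28.5% at bodies and 20.8% at 3' ends, and H3K9me1 to 54.6%, 72.6% and 66.2%. H3K9me2 came to 20.6%, 31.4% and 23.3%, where Zfp genes had 12.4%, 19.9% and 16.8%. The share of Zfp genes with H3K9me3 at a 3' end was above that of protein-coding genes on each of the 9 chromosomes. For H3K9me1 at start sites it was below on 8 of 9, and chromosome 14, with 5 Zfp genes, was the exception. At bodies the Zfp share of H3K9me1 was above on 3 of 9. That of H3K9me2 was above on 3 of 9 at start sites, 3 at bodies and 4 at 3' ends.

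Single chromosomes ranged widely. All 6 Zfp genes on chromosome 10 carried H3K9me3 at a 3' end, where 66.7% of protein-coding genes did, and 5 of them carried it at a start site. On chromosome 8 it met 18 of 27 3' ends (66.7%), against 32.3% of protein-coding genes, and on chromosome 11 it met 7 of 23 (30.4%), against 5.80%. On chromosome 17, with the most Zfp genes, it met 15 of 47 3' ends (31.9%) and 1 start site (2.13%). The start sites of chromosome 17 were thus nearly free of a mark that 14.1% of protein-coding start sites there carried.

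**Figure D2:**
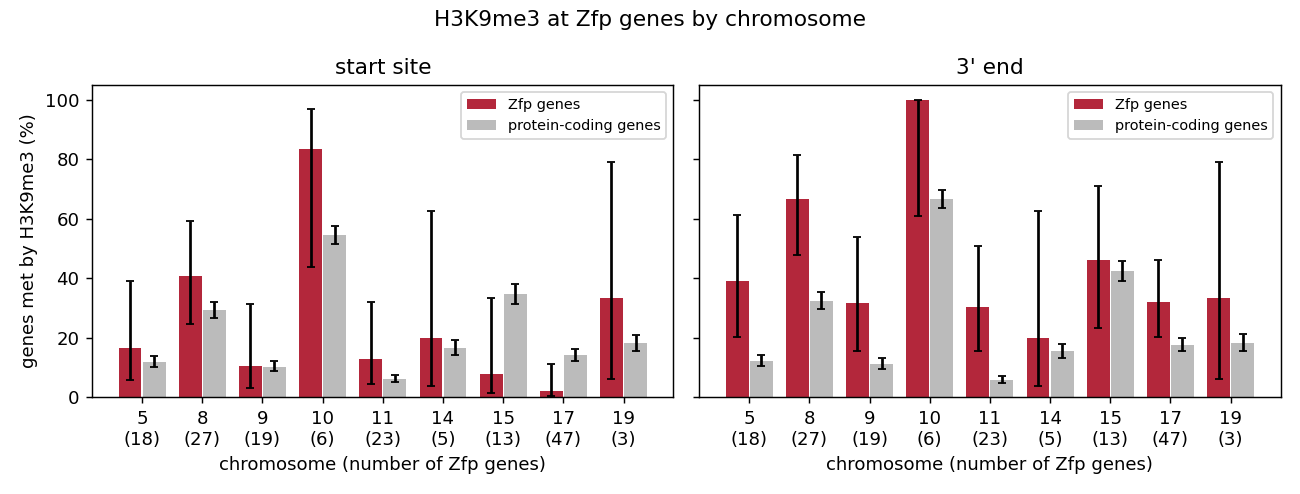
Share of genes (%) met by H3K9me3 at start sites (left) and 3' ends (right) on each of the 9 chromosomes, for Zfp genes (red, numbers in brackets under the axis) and protein-coding genes (grey), with 95% Wilson intervals as error bars. The red bar is above the grey bar at 3' ends on every chromosome, while on chromosome 17 the start sites show 2.13% for Zfp genes.

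Every Zfp gene with H3K9me3 at a start site also had it at a 3' end, whereas many had it at the 3' end alone. Both ends were met in 28 genes, the 3' end alone in 39, the start alone in 0 and neither in 94. Among protein-coding genes, 1566 were met at both, 623 at the 3' end alone and 372 at the start alone. With 1 window per gene, placed at its outermost 5' and 3' base, 14 Zfp genes were met at both ends, 43 at the 3' end alone and 2 at the 5' end alone, against 1031, 739 and 446 protein-coding genes. The lean to the 3' end was therefore present with single windows too. For H3K9me2 the counts were 10 at the 3' end alone and 3 at the start alone, and for H3K9me1 they were 32 and 7. The 3' end alone thus made up 6.21% and 19.9% of Zfp genes for these marks, near the 6.81% and 15.9% of protein-coding genes, whereas for H3K9me3 it made up 24.2%, against 6.47%.

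Along the gene, H3K9me3 coverage rose towards the 3' end. With each body divided into 20 equal parts, 15 of 161 Zfp genes (9.32%) were covered at the first part, 21 (13.0%) at the 10th, 54 (33.5%) at the 19th and 48 (29.8%) at the last. At 10 kb beyond the 3' end 34 genes (21.1%) were covered. Protein-coding genes were covered at 12.8% in the first part and 15.8% in the 19th, so their profile was nearly flat. H3K9me1 was low at the 5' end in both sets and rose into the body, to 60 of the 161 Zfp genes (37.3%) and 4813 of the 9632 protein-coding genes in the 19th part.

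Genes with a KRAB box held most of the H3K9me3. It met 50 of 87 at the 3' end (57.5%, 47.0 to 67.3) and 20 at a start site (23.0%, 15.4 to 32.9). Among the 59 genes with fingers and no KRAB box found it met 15 (25.4%, 16.1 to 37.8) and 6 (10.2%, 4.74 to 20.5). The intervals of the groups did not overlap at the 3' end and did at the start. H3K9me1 had the opposite order at start sites, with 25 of 87 KRAB genes (28.7%) and 31 of 59 others (52.5%), but this rested on chromosome 17. There H3K9me1 met 4 of 38 KRAB genes at start sites (10.5%) and 5 of the 9 genes with no KRAB box found (55.6%), while on the other 8 chromosomes it met 42.9% and 47.7%. At 3' ends of those 8 chromosomes the order turned, with 65.3% of KRAB genes and 58.5% of the rest. In the 19th part of the body H3K9me3 covered 47.1% of KRAB genes and 17.6% of the 74 genes with no KRAB box found.

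**Figure D3:**
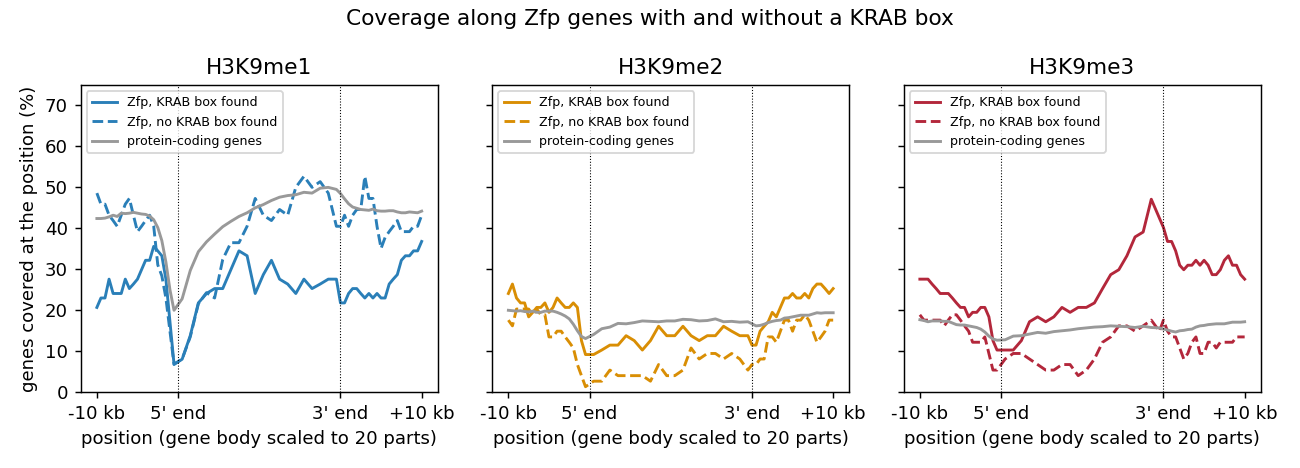
Share of genes (%) covered at each position from 10 kb before the 5' end to 10 kb after the 3' end, with gene bodies scaled to 20 parts, for Zfp genes with a KRAB box found (87, solid), Zfp genes with none found (74, dashed) and protein-coding genes (grey). In the H3K9me3 panel the solid line climbs from 10.3% in the first part of the body to 47.1% in the 19th, while the grey line stays between 12.8% and 15.8% at these positions.

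The KRAB difference at 3' ends was seen off chromosome 17, and on chromosome 17 it had the same direction in few genes. On chromosome 17 H3K9me3 met the 3' ends of 14 of 38 KRAB genes (36.8%) and 1 of 9 others (11.1%), and 9 genes are few for such a comparison. On the other 8 chromosomes it met those of 36 of 49 KRAB genes (73.5%) and 16 of 65 others (24.6%). At start sites on chromosome 17 it met 1 of 38 KRAB genes and 0 of 9 others. Elsewhere it met 19 of 49 KRAB start sites (38.8%) and 8 of 65 others (12.3%), so there the difference reached the starts too. Among KRAB genes the shares hardly moved with the number of fingers, as H3K9me3 met the 3' ends of 39 of 69 KRAB genes with 10 or more fingers (56.5%) and 10 of 17 with 1 to 9 (58.8%).

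Sequence repeats moved with the mark as well. The median soft-masked share of the body was 32.0% in genes with H3K9me3 at a 3' end and 24.2% in genes without, and it was 33.0% in KRAB genes and 22.3% in the others. The part of repeats in the result was not tested. The ratio of observed to expected CG around the 5' end had a median of 0.513 in Zfp genes with H3K9me3 at a start site and 0.514 in those without. Protein-coding genes with H3K9me3 at a start site had a median of 0.301.

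H3K9me3 met the finger arrays of many genes, and mostly from end to end. It met the array, from the first to the last finger, in 59 of 145 genes (40.7%, 33.0 to 48.8), and in 53 of these it covered the array from end to end. Of the 304 protein-coding genes with fingers, which include the Zfp genes, it met 100 arrays (32.9%, 27.9 to 38.4). In 83 of these the array was covered from end to end. H3K9me1 met the arrays of 63 Zfp genes (43.4%), 52 of them from end to end, so whole coverage was usual for it too. With a KRAB box H3K9me3 met 46 of 86 arrays (53.5%), and with none found 13 of 59 (22.0%). H3K9me1 had the opposite order, with 26 (30.2%) and 37 (62.7%). This order was not split by chromosome. On chromosome 17, where 38 of 47 Zfp genes had a KRAB box found, H3K9me1 met 10 of 45 arrays (22.2%). An array spread over several exons also takes in introns, as in Zfp423 (120.787 kb), and is met more readily. At the longest coding exon H3K9me1 met 29 of 87 KRAB genes (33.3%) and 36 of the 59 others with fingers (61.0%). The longest coding exon was met in 61 of 153 coding genes for H3K9me3 (39.9%), 66 for H3K9me1 (43.1%) and 19 for H3K9me2 (12.4%). For all protein-coding genes the shares were 17.4%, 48.5% and 18.9%, although their longest coding exon is shorter, with a median of 309 bp against 1410 bp, and a longer exon is met more readily.

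H3K9me3 at Zfp genes came without H3K9me2 more often than at protein-coding genes overall. Of the 71 bodies with H3K9me3, 45 held no H3K9me2 (63.4%, 51.8 to 73.6), while of the 2940 protein-coding bodies with H3K9me3, 543 held none (18.5%, 17.1 to 19.9). At 3' ends the counts were 43 of 67 (64.2%, 52.2 to 74.6) and 525 of 2189 (24.0%, 22.2 to 25.8). In the other direction the sets were closer, with H3K9me3 in 26 of the 32 Zfp bodies that had H3K9me2 (81.2%) and in 73.6% of the protein-coding ones. The lack of H3K9me2 was as common in genes with a KRAB box (33 of 52 bodies) as in those with none found (12 of 19). The chromosome makeup was not held equal for this result. Chromosomes 10 and 15, with H3K9me2 over 59.0% and 46.1% of the sequence, held 754 and 403 of the 2940 protein-coding bodies with H3K9me3. They held 6 each of the 71 Zfp bodies.

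Combinations differed between the ends. At start sites 85 genes had no mark, 44 had H3K9me1 alone, 13 had all 3, 11 had H3K9me3 alone, and the remaining 8 had other pairs or H3K9me2 alone. At 3' ends 45 had no mark, 46 had H3K9me1 alone, 23 had H3K9me3 alone, 20 had H3K9me1 with H3K9me3, 18 had all 3, and 9 had another state. Start sites with no mark made up 52.8% of Zfp genes and 37.6% of protein-coding genes, those with all 3 marks 8.07% and 12.1%, and those with H3K9me3 alone 6.83% and 3.18%. H3K9me3 alone at the 3' end was found in 14.3% of Zfp genes and 3.23% of protein-coding genes. No mark lay anywhere in the body or at either end of 34 genes (21.1%), against 18.3% of protein-coding genes.

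**Figure D4:**
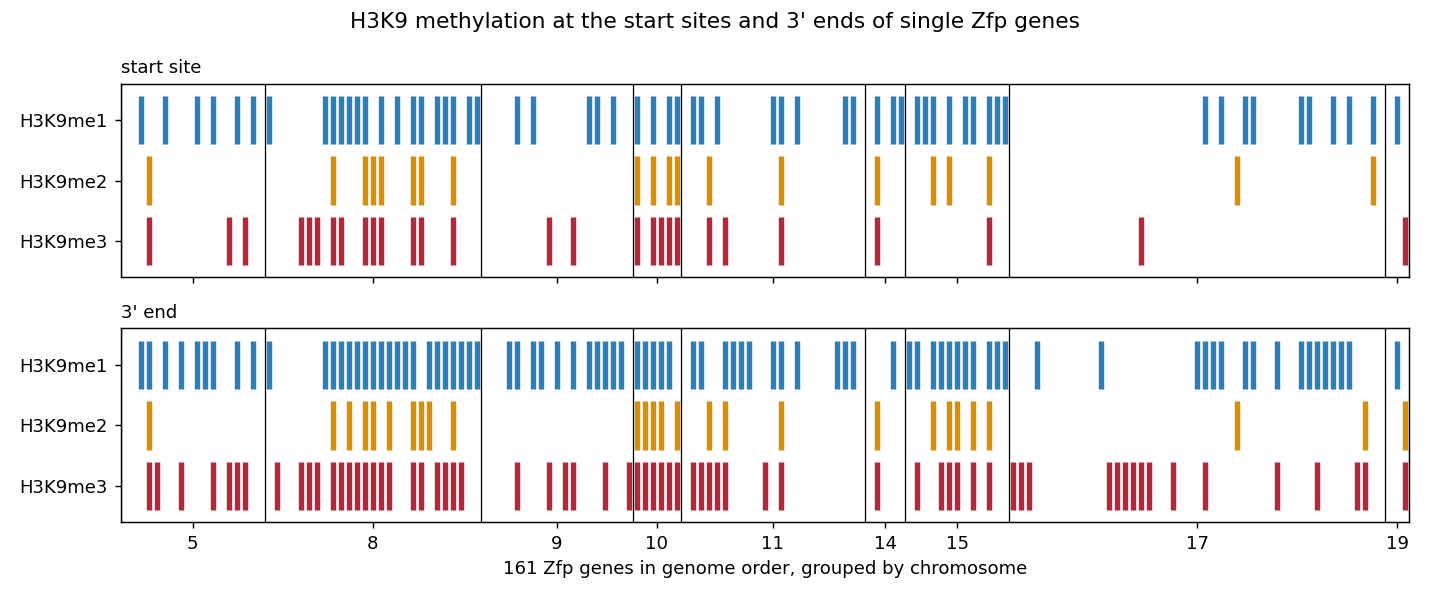
Marks at the start sites (top) and 3' ends (bottom) of the 161 Zfp genes, each in its own column in genome order, with vertical lines between chromosomes and a coloured bar where the mark is present. The red H3K9me3 row holds 28 bars at start sites and 67 at 3' ends, and on chromosome 17 it goes from 1 bar to 15.

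H3K9me3 regions at the 3' ends were short beside those at starts. The 67 regions at 3' ends had a median width of 6.75 kb (0.75 to 324.75 kb), and the 27 at start sites a median of 20.25 kb (3.0 to 324.75 kb). The sets overlap, since a region broad enough to reach a start and a 3' end counts in both, as that of 324.75 kb does. The median over all 23355 H3K9me3 regions on these chromosomes was 5.25 kb. Of the 67 regions, 2 were shared by several Zfp genes. In KRAB genes the nearest H3K9me3 region lay a median of 11.98 kb from the 5' end and 1.20 kb from the 3' end, and it was closer to the 3' end in 62 genes and closer to the 5' end in 17.

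The 39 genes with H3K9me3 at a 3' end and not at a start included 30 KRAB genes and 14 genes of chromosome 17. In 32 of them no H3K9me2 lay in the body, and in 25 no mark lay at any start site. By body share they were led by the neighbours Zfp960 (chr17:17064113-17089628), with 85.7% of the body in H3K9me3, and Zfp97 (chr17:17121415-17146831), with 69.2%. A region at chr17:17067751-17120250 began 3638 bp inside the first gene and ran past its 3' end, and a region at chr17:17129251-17156250 did the same for the second, so that both arrays of 13 fingers were wholly covered. The first of these regions ended 1165 bp before the 5' end of Zfp97, just outside the 1 kb window.

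Smaller genes of this kind show how narrow the covered piece could be. Zfp105 (chr9:122923072-122931028) had 1 H3K9me3 region of 6.0 kb, at chr9:122927251-122933250, which left the start bare and covered 47.5% of the body and all 11 fingers. Zfp867 (chr11:59461197-59472474) had 1 region of 3.75 kb, at chr11:59461501-59465250, over 33.3% of the body and all 10 fingers. Zfp599 (chr9:22247430-22259895) had 1 region of 3.75 kb as well, at chr9:22248001-22251750, over 30.1% of the body and again all 10 fingers. None of these 3 genes had H3K9me1 or H3K9me2 at a start, body or 3' end.

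Other genes with H3K9me3 at the 3' end alone began with H3K9me1. Zfp90, Zfp879, Zfp12, Zfp647, Zfp821, Zfp2 and Zfp866 had H3K9me1 and no other mark at a start site, and H3K9me3 covered 67.4%, 54.8%, 40.8%, 39.0%, 30.6%, 30.3% and 30.1% of their bodies. In each of them the array was wholly inside H3K9me3. Zfp763 (38.6%), Zfp280b (28.3%) and Zfp623 (25.4%) had no mark at a start.

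All 3 marks met the start sites of Zfp964, Zfp709, Zfp617, Zfp791, Zfp423, Zfp612, Zfp365, Zfp433, Zfp873, Zfp938, Zfp286, Zfp488 and Zfp641. Of these 13 genes, 6 lie on chromosome 8 and 4 on chromosome 10. Zfp488, known for its part in oligodendrocyte differentiation, had H3K9me3 over 64.2% and H3K9me2 over 74.3% of its body. Zfp791 had each mark over 74.2% of the body. Zfp617 and Zfp882 overlap each other on chromosome 8, so that their start sites share a region.

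H3K9me3 covered the whole body of 7 genes, Zfp353-ps, Zfp612, Zfp641, Zfp709, Zfp869, Zfp872 and Zfp882. Zfp612 and Zfp641 were also wholly inside H3K9me1 and H3K9me2. Zfp869 was wholly inside H3K9me1 and had no H3K9me2, and Zfp872 and the pseudogene Zfp353-ps had neither. Zfp872 lay in a region of 38.25 kb at chr9:22169251-22207500. The next genes by body share were Zfp423 (98.6%), Zfp433 (92.3%) and Zfp781 (90.4%). Whole-body H3K9me3 was thus found alone, with H3K9me1 and with both other marks.

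The highest body shares of the other marks fell partly on the same genes. For H3K9me1 they were the pseudogene Zfp422-ps, Zfp612, Zfp641 and Zfp869, each wholly covered, and Zfp433 (95.8%). For H3K9me2 they were Zfp454, Zfp612, Zfp641, Zfp709 and Zfp882, each wholly covered.

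Among 22 genes with a known role, the imprint-keeping genes Zfp57 and Zfp445 and the retrovirus repressor Zfp809 had H3K9me1 only. All 3 are KRAB genes. H3K9me1 lay in 23.8%, 25.5% and 8.50% of their bodies and at a 3' end, with no mark at a start site. Their neighbours could differ, since Zfp872 and Zfp599 lie in the same cluster as Zfp809 on chromosome 9 and carry H3K9me3.

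Zfp42 (Rex1, chr8:43295063-43306980), a marker of pluripotent cells, had H3K9me3 at both ends and no other mark. A region of 3.0 kb (chr8:43305001-43308000) held its 5' end and one of 2.25 kb (chr8:43294501-43296750) held its 3' end and its 4 fingers, and together they made up 30.8% of the body. Zfp423 (chr8:87661810-87959595), a regulator of fat cell commitment with 27 fingers and no KRAB box found, was nearly filled by H3K9me3 (98.6%) and H3K9me2 (97.6%), with H3K9me1 over 72.5%. The last H3K9me3 region inside the gene ended at position 87957000, short of its outermost 5' end, and the 1 kb window at that end held no region.

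Most other genes of this list had H3K9me1 or no mark. No mark was found at Zfp36l2, which promotes mRNA decay, Zfp207, a spindle assembly factor, the ubiquitin ligase Zfp91, the epidermal regulator Zfp750, or Zfp703, Zfp219 and Zfp62. H3K9me1 alone was found at Zfp385a (88.1% of the body), Zfp318 (76.6%), Zfp518a (58.1%), Zfp326 (47.9%), Zfp598 (20.4%), a ubiquitin ligase of stalled ribosomes, and Zfp609 (14.98%). Zfp365 carried all 3 marks, with H3K9me3 over 48.6% of its body.

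The 3 Zfp354 genes, KRAB genes within 1 cluster on chromosome 11, each had a different state. Zfp354a had H3K9me1 over 27.7% of the body and no other mark. Zfp354b had H3K9me3 over 85.9%, H3K9me2 over 38.2% and H3K9me1 over 22.9%. Zfp354c had H3K9me1 over 45.1% and H3K9me3 over 18.0%, with H3K9me1 alone at a start site. Their arrays held 13, 13 and 11 fingers, and H3K9me3 covered those of Zfp354b and Zfp354c wholly and that of Zfp354a not at all.

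Clusters were taken as runs of at least 4 Zfp genes with gaps of at most 300 kb. There were 8, with 61 genes inside and 100 outside. The largest, from Zfp677 to Zfp946 (chr17:21383748-22456689), held 18 genes with a KRAB box found in all. H3K9me3 met 7 bodies and 7 3' ends there but only the start site of Zfp947, and H3K9me1 met no start site and 2 3' ends. H3K9me1 covered 2.45%, H3K9me2 7.90% and H3K9me3 16.9% of the span.

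This cluster was uneven along its length. The first 9 genes, from Zfp677 to Zfp229, had no H3K9me3 in the body, and 4 of them (Zfp677, Zfp51, Zfp983 and Zfp229) had H3K9me1. H3K9me3 met Zfp820, Zfp995, Zfp942, Zfp943, Zfp947, Zfp994 and Zfp946, over 3.07% to 22.3% of the body. It covered the arrays of Zfp942, Zfp947, Zfp994 and Zfp946 wholly and those of Zfp820 and Zfp995 over 95.6% and 72.9%, and it left the array of Zfp943 bare.

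The second largest, from Zfp871 to Zfp414 (chr17:32765496-33631779), held 14 genes, 12 of them with a KRAB box found. H3K9me3 met no start site, 3 bodies (Zfp763, Zfp955a and Zfp81) and 2 3' ends, and H3K9me1 met 5 start sites and 8 3' ends. H3K9me1 covered 19.5% of the span, H3K9me2 18.5% and H3K9me3 11.2%. The 2 largest clusters thus differed more in H3K9me1 than in H3K9me3.

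**Figure D5:**
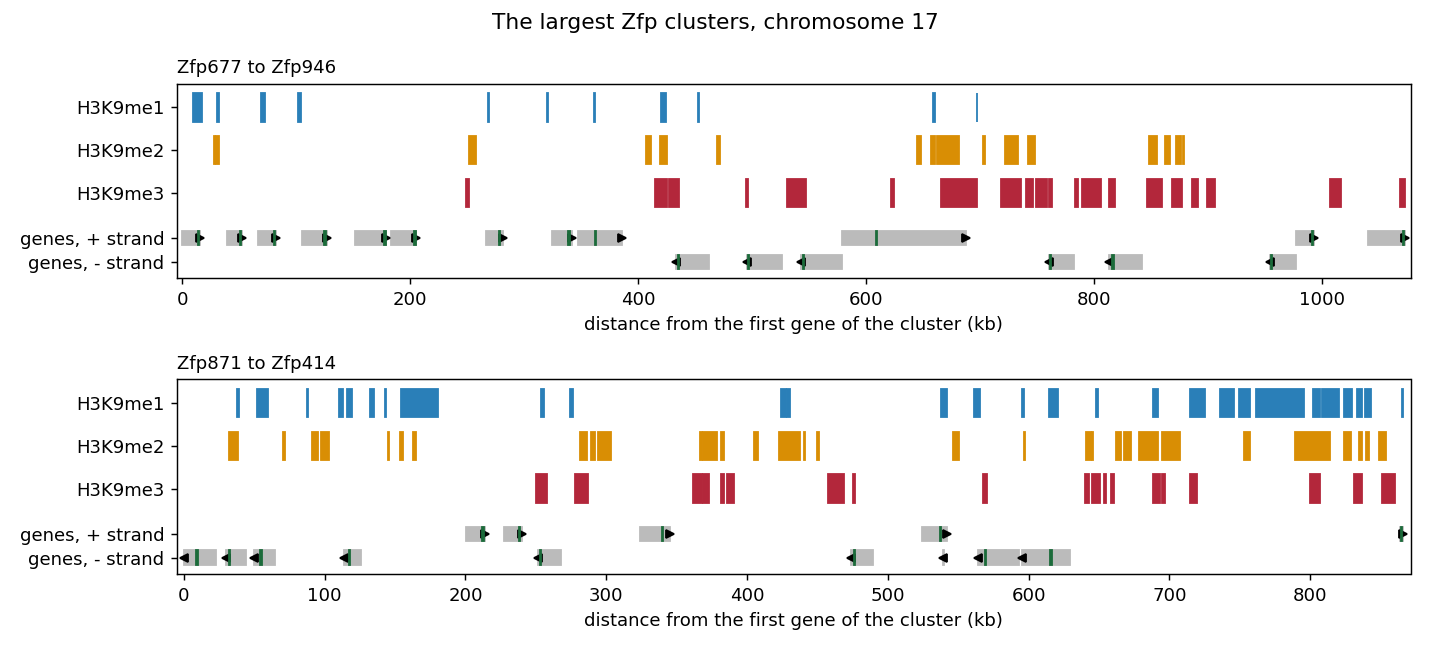
Maps of the 2 largest clusters, with distance from the first gene (kb) on the x axis, regions of each mark as coloured blocks, genes as grey blocks on 2 rows by strand, finger arrays in green and 3' ends as arrowheads. H3K9me3 is sparse over the first 9 genes of the upper cluster and recurs over the right part, where it meets 7 3' ends, and H3K9me1 is denser in the lower cluster (19.5% of the span) than in the upper (2.45%).

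The other 6 clusters were smaller and varied widely in marks. From Zfp433 to Zfp938 on chromosome 10, H3K9me3 covered 94.6% of 536.5 kb and met every start, body and 3' end of the 4 genes, while the lists are dense over this whole chromosome (58.8% in H3K9me3). From Zfp709 to Zfp961 on chromosome 8 it met 3 start sites and 4 3' ends of 4 genes, and from Zfp868 to Zfp866 2 start sites and 4 3' ends of 5. From Zfp354c to Zfp354a on chromosome 11 it met 2 start sites and 5 3' ends of 6 genes. On chromosome 9 it met 0 start sites and 1 3' end of the 5 genes from Zfp560 to Zfp846, and 2 and 3 of the 5 from Zfp653 to Zfp810. H3K9me3 covered 8.36% of the span from Zfp560 to Zfp846, less than in either large cluster on chromosome 17.

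Related genes outside the name rule gave a further view. KRAB genes with other names on the same chromosomes numbered 23, and H3K9me3 met 11 of their start sites (47.8%, 29.2 to 67.0) and 16 of their 3' ends (69.6%, 49.1 to 84.4). Genes with 5 or more fingers and other names numbered 61, with H3K9me3 at 20 start sites (32.8%, 22.3 to 45.3) and 26 3' ends (42.6%, 31.0 to 55.1). Their share at 3' ends was thus near the 41.6% of Zfp genes, and their share at start sites was above the 17.4% of Zfp genes. Zbtb, Zscan, Zkscan and Klf genes, which pair fingers with other domains or hold few fingers, numbered 32, with H3K9me3 at 4 start sites and 6 3' ends (18.8%, 8.89 to 35.3) and H3K9me1 in 28 bodies. These sets can share genes. On the other autosomes, where the lists hold few regions, H3K9me3 met 22 of 246 Zfp genes at start sites (8.94%) and 25 at 3' ends (10.2%), so the ends were close to each other there.

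Partners of KRAB repression had H3K9me1 or no mark. Of 17 listed genes 8 lie on the 9 chromosomes, and H3K9me1 met 5 of them at a start site, 6 in the body and 3 at a 3' end, where 54.4%, 72.6% and 66.3% of protein-coding genes were met. The marked genes were the DNA methyltransferase gene Dnmt1, its cofactor Uhrf1, the HUSH genes Fam208a, Mphosph8 and Pphln1 and, in the body and 3' end, Cbx5, which encodes HP1 alpha. H3K9me2 and H3K9me3 met none of the 8, and Cbx1 and Daxx had no mark. Among protein-coding genes H3K9me2 met 22.6% of start sites, 33.8% of bodies and 25.5% of 3' ends. The shares for H3K9me3 were 20.1%, 30.5% and 22.7%, and 8 genes are few for such a comparison.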

How the data were processed

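Regions from ChIP-seq of wild-type MEFs were analysed for the 3 methylated states of H3K9. Per the study's methods, the authors aligned paired-end reads to mm10 (GRCm38) with BWA 0.7.1 and called regions with histoneHMM. How replicates and input entered the call, the threshold and the treatment of reads with several placements are not given in the sources used here. The deposited files hold positions only (chromosome, start and end), with no count, signal or score. The lists held 42704, 29119 and 27108 regions, and 0 boundaries lay off a 750 bp grid with starts read as 1-based. Read depth is unknown from them, so the precision of single regions cannot be given.

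Genes came from GENCODE M21. Windows were 1 kb either side of any annotated start or 3' end, and an overlap of 1 bp counted. Shares were computed with Python 3.11.15, NumPy 2.4.6 and SciPy 1.17.1 and drawn with Matplotlib 3.10.9, with Wilson intervals at 95%. No test was made, since no replicate values were used. Coding sequences were translated on GRCm38.p6. A finger was a cysteine, 2 to 4 residues, a cysteine, 12 residues, a histidine, 3 to 5 residues and a histidine. The KRAB box pattern as first written matched 0 genes, was found to be 1 residue short, and was replaced by a looser one that matched 87 (D or E, V, any 3, F or Y, any 3, E, W) before the marks were split by it. A box that departs from it is missed.

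Named genes were the genes with a known role (22), the highest by body share (10 for H3K9me3, 5 for each other mark), all with 3 marks at a start, up to 15 with H3K9me3 at a 3' end only, and the 2 largest clusters, and other genes named were chosen after their values were seen. Members and lists were chosen with earlier results of these data known. Overlap, distance and finger counts were tested on simulated data, with 0 mismatches in 300 draws. Alternatives changed the window, the overlap, the sites, region width, joining, reading of starts, gene type and chromosomes.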

Additional observations from a re-analysis of the deposited data

How the results depend on the processing

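Of the shares of Zfp genes met and the median body shares, 87 recomputed values stayed within the interval of the reported value and 24 left it. No interval of the medians is given here. The H3K9me1 median, reported as 22.0%, was counted among the 87 at 9.82% and at 10.5%. With regions of at least 5 kb only, H3K9me1 met 26.7% of start sites, 40.4% of bodies and 36.0% of 3' ends, H3K9me2 met 13.7% of bodies and H3K9me3 29.8% of bodies and 28% of 3' ends, and the median body share of H3K9me1 was 0.0%. Protein-coding genes under this setting were met by H3K9me3 at 22.3% of bodies and 17.7% of 3' ends. With only the gene's own end, H3K9me1 met 16.8% of starts and 41.6% of 3' ends and H3K9me3 9.94% of starts, against 15.3% of protein-coding genes. A window of 500 bp gave 28.6% of starts for H3K9me1, and a window of 2 kb gave 52.2%, 19.9% and 25.5% of starts for H3K9me1, H3K9me2 and H3K9me3. With at least 50% of a window covered, H3K9me1 met 24.8% of starts and 45.3% of 3' ends and H3K9me2 8.07% of starts. With at least 50% of the body covered, the marks met 28.6%, 6.83% and 14.9% of bodies, against 44.8%, 16.3% and 14.3% of protein-coding genes. These settings ask for more or less coverage by construction. Leaving out chromosomes 17 or 8 was chosen after seeing the data. Without chromosome 17, H3K9me1 met 45.6% of starts and 61.4% of 3' ends with a median body share of 33.1%, and without chromosome 8, H3K9me2 met 14.2% of bodies, and the cause was not tested. Leaving out chromosomes 10 and 15 kept the shares within their intervals and took the median body share of H3K9me1 to 9.82%, and leaving out chromosome 8 took it to 10.5%. Joined regions, 0-based starts and protein-coding members only moved no value out of its interval.

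No paired analysis was possible because each mark has 1 list with no values per replicate, and leaving out a replicate was not run for the same reason. The lists give no read depth, so a gene with no region is not shown to lack the mark.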
